A study of Mus musculus with 40 samples.

Results

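This comparison set splenic B cells from Bank1-/- mice after 48 h of CpG against Bank1-/- cells after 24 h of CpG, with 5 arrays in each group, and described 8861 genes. The arrays were chosen by their sample labels alone and make up 10 of the 40 in the study, which crossed genotype (Bank1-/- or WT) with hours of CpG and measured RNA on Illumina bead arrays. The study's title concerns IL-6 and interferon-inducible genes, together with the kinase p38 and the complex of eIF4E, and the labels state no separate aim for the interval between 24 and 48 h. WT cells at 48 h and at 24 h, 5 arrays each, entered the same fit and were set beside the Bank1-/- cells where the genotypes are compared.

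All 4 groups were C57BL/6 splenic B cells enriched by negative selection on magnetic beads, cultured with CpG and labelled as biological replicates. The mutant mice had been backcrossed to C57BL/6, and WT animals were, per the labels, littermates or bought C57BL/6J mice, without saying which gave which array. No culture without CpG was analysed here, so the effect of CpG and of time in culture cannot be told apart. In RNA from whole cultures, fewer cells of a type and less RNA per cell cannot be told apart either.

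CpG is bacterial-type DNA that B cells sense in endosomes through TLR9 and its adaptor MyD88. It makes resting B cells grow and divide, for which they raise ribosome, nucleotide and protein synthesis, and some of their progeny then become antibody-secreting plasmablasts. Bank1 is a B cell scaffold protein with ankyrin repeats that binds signalling kinases. B cells also display peptides to helper T cells on MHC class II, and their transcription factors, homing receptors and cytokines mark how far activation has gone.

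The Bank1 probe was read first, because it checks the labels. Its normalized log2 intensity on Bank1-/- arrays 1 to 5 of each group was 9.07, 9.11, 9.21, 8.76 and 8.89 at 48 h, against 7.84, 7.55, 8.08, 7.62 and 7.60 at 24 h. The WT values were 11.19, 11.23, 11.47, 11.58 and 11.05 at 48 h, against 10.20, 10.24, 10.17, 10.28 and 10.10 at 24 h. Every Bank1-/- array lay below every WT array of the same time, and the labels do not say which part of the gene was removed or whether the probe lies in it. In Bank1-/- cells the signal was higher at 48 h, with a log2 change of 1.27 ± 0.11 (SE) and a limma adjusted p of 3.13e-10. A log2 change is here the mean of the 48 h arrays minus the mean of the 24 h arrays, so that 1 is a 2-fold rise.

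Mean raw intensity per array lay between 262 and 540 at 48 h and between 228 and 407 at 24 h, and the number of detected probes between 14065 and 16592 at 48 h and between 11744 and 15016 at 24 h. Time accounted for most of the spread: the first principal component of the 20 arrays held 80.1% of the variance and separated 48 h from 24 h in both genotypes. Bank1-/- 24 h replicates 2, 4 and 5 were the dimmest of their group and stood apart from replicates 1 and 3 on the second component, which held 7.85%. Nnt, a mitochondrial transhydrogenase gene that carries a deletion in the C57BL/6J substrain, read 7.02, 6.27, 6.39, 7.0 and 6.98 at 48 h, against 6.55, 8.46, 6.79, 7.32 and 8.10 at 24 h on Bank1-/- arrays. The 3 arrays that stood apart had the highest Nnt signals of the 24 h group, and whether this bears on the results was not tested. Without these 3 arrays 5437 of 8822 genes were called, 4861 of them in common with the full comparison and in the same direction. Of 10 defining B cell markers 8 had a probe with 1 gene symbol on the array, among them Cd79b, Ms4a1, Pax5, Ebf1 and Ptprc. All 8 passed the detection filter and were called higher at 48 h. Without the 3 arrays that stood apart 5 of the 8 were, Pax5, Ebf1 and Ptprc losing the call.

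Between 24 and 48 h more of the tested genes changed than did not in the main setting. Of the 8861 genes, 5996 (67.7%) had a limma adjusted p under 0.05 and are called here. Of these, 3155 (35.6% of all) were higher and 2841 (32.1%) lower at 48 h. This majority did not hold without the filter on dim probes (6133 of 19057 genes called). Nor did it hold with each array scaled to its median (3921 of 8861). At least 2-fold changes were called for 1500 genes (16.9%), 781 (8.81%) higher and 719 (8.11%) lower, and for 4173 genes (47.1%) no array of one time overlapped the other. The median log2 change over all genes was 0.02, with quartiles of -0.39 and 0.43. Scaling each array to its median in place of quantile normalization moved that median to 0.26 and left 3921 calls, 78.3% of them higher against 52.6% in the main setting, so that small changes shared by many genes depend on the scaling. The gene groups below are therefore given as counts of called members, to be read against the 35.6% of all genes called higher and the 32.1% called lower, and as a median to be read against 0.02, and a member that was detected at one time only had to differ to be tested at all.

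**Figure D1:**
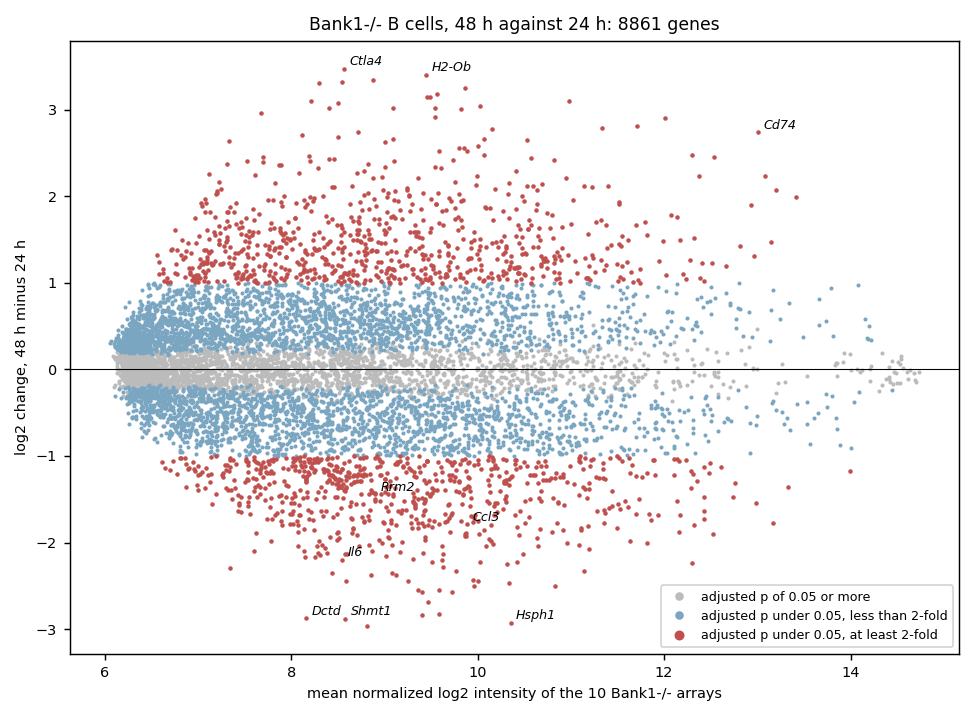
Log2 change of each of 8861 genes between 48 h and 24 h in Bank1-/- cells (vertical axis) against its mean normalized log2 intensity on the 10 arrays (horizontal axis), coloured by whether it was called and by 2-fold size. Changes of at least 2-fold, 1500 genes, occur in both directions across the range of intensity, and a few genes are labelled.

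Among genes whose arrays did not overlap, the largest rise belonged to Ctla4, an inhibitory receptor best known from T cells, with log2 intensities of 10.30, 10.37, 10.26, 10.14 and 10.43 at 48 h, against 6.89, 6.34, 6.95, 6.86 and 7.08 at 24 h. Its log2 change was 3.48 ± 0.10 (SE) with an adjusted p of 1.73e-18, and no 48 h array overlapped a 24 h array. H2-Ob, Vpreb3, Il4i1, Gadd45g, Evl, Gmfg, Ifi27l2a, Ccr6, Ptpn22, Cd2, Anxa2, Tha1, Aldoc and Egr3 completed the 15 largest rises, with log2 changes between 3.02 and 3.41. Vpreb3 encodes a protein that binds immunoglobulin heavy chains in precursor B cells, Il4i1 a secreted amino acid oxidase, and Anxa2 an annexin. A second Aldoc probe changed by only 0.46, against 3.35 for the one used. The largest such fall was that of Hsph1, a cytosolic chaperone, which read 8.56, 8.86, 9.04, 8.53 and 9.45 at 48 h, against 11.85, 11.93, 11.60, 11.88 and 11.83 at 24 h. Its log2 change was -2.93 ± 0.13 (SE), and the other 14 of the 15 largest falls (Shmt1, Dctd, Rrp15, Atad3a, Bop1, H3c7, H3c1, Trmt61a, Ttc27, Mybbp1a, H3c6, Srm, Dctpp1 and Rrp1b) lay between -2.88 and -2.44. Most of these proteins are known from nucleotide, ribosome, polyamine or histone supply. Another kept H3c7 probe changed by only -0.08, against -2.58 for the one used. The 10 smallest p-values belonged to Egr3, Shmt1, Ckb, Dctd, H2-Ob, Ctla4, H2-Oa, Tha1, Ccr6 and Anxa2, and Ckb, the brain-type creatine kinase, rose by 3.02 log2 units.

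Antigen presentation on MHC class II gave the highest median of the lists examined. Of 17 (of 20 listed) members that passed the detection filter, 16 were higher at 48 h and none was lower, with a median log2 change of 2.08. MHC class II genes share an upstream control region in which an X box and an inverted CCAAT box (the Y box, read ATTGG on the coding strand) lie a fixed distance apart, and the factors bound there recruit the coactivator CIITA, encoded by Ciita. Among the RefSeq promoters (GRCm38.p6, 250 bases before to 50 after a gene's start), 13 of the 17 tested genes had 17 entries. Motifs here and below were searched in the 250 bases before the start. Shares of all promoters cover 27025 genes, including genes not tested here, and no share over the tested genes was computed. The letters GCAAC, found in the X box of class II genes, were searched together with ATTGG at 15 to 35 bases downstream, on either strand; this pair was chosen after these promoters had been looked at. It occurred in 5 of the 17 entries (29.4%), against 287 of all 32851 (0.9%), and CCAAT alone on either strand in 12 of 17 (70.6%), against 33.8% of all. The 250 bases before the start of the 5 genes that hold the pair are shown, with both motifs in capitals. Each sequence is written on the gene's own strand. H2-Ob lies at chr17:34238655-34238904, H2-Eb1 at chr17:34305617-34305866, H2-Oa at chr17:34092129-34092378, H2-Aa at chr17:34287824-34288073 on the minus strand and H2-Eb2 at chr17:34325425-34325674, the others on the plus strand.
H2-Ob: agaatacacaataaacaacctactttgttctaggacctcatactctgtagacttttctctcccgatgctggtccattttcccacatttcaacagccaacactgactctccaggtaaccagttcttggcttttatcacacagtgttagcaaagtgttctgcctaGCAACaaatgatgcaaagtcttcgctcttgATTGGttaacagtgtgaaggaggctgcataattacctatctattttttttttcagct
H2-Eb1: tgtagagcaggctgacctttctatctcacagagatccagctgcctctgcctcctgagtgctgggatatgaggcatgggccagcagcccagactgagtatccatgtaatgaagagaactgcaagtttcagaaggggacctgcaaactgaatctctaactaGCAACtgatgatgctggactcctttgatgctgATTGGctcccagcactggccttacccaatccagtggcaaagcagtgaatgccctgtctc
H2-Oa: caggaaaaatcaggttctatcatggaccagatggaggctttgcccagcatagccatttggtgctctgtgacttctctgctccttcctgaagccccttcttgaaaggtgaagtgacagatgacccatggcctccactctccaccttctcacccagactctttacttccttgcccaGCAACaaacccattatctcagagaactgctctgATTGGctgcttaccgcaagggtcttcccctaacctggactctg
H2-Aa: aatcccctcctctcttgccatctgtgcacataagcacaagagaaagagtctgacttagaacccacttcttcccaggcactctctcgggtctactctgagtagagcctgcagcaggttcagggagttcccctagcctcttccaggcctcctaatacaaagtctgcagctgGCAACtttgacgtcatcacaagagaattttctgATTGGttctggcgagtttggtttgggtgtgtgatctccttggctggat
H2-Eb2: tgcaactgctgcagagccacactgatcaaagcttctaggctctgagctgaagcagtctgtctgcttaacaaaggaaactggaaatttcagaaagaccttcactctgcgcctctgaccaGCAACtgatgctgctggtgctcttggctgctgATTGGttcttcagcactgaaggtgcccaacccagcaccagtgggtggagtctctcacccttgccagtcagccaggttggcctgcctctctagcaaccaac
The spacing between the motifs was 25 bases in H2-Ob, 27 in H2-Eb1 and H2-Eb2, and 28 in H2-Oa and H2-Aa. A match of letters is a description and no measured binding site.

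The classical chains rose. H2-Eb1, the E beta chain, read 13.56, 13.48, 13.51, 13.54 and 13.19 at 48 h, against 10.31, 10.61, 10.39, 10.62 and 10.82 at 24 h. H2-Aa, the A alpha chain, read 13.79, 13.71, 13.70, 13.95 and 13.66 at 48 h, against 11.71, 10.81, 11.73, 11.29 and 10.98 at 24 h. Both were higher on every 48 h array than on any 24 h array, with log2 changes of 2.90 ± 0.11 (SE) and 2.46 ± 0.13 (SE). H2-Ab1, the A beta chain, rose by 2.47 and H2-Eb2 by 2.44, although 1 of 3 H2-Eb2 probes changed by -0.06. Cd74, the invariant chain that guides class II molecules to endosomes, rose as well, with intensities of 14.29, 14.40, 14.63, 14.28 and 14.30 at 48 h, against 11.60, 11.60, 11.62, 11.74 and 11.63 at 24 h. Ciita, the coactivator itself, read 10.13, 10.12, 9.93, 10.13 and 10.11 at 48 h, against 7.34, 7.22, 7.24, 7.5 and 7.39 at 24 h. For neither did the times overlap, and the log2 changes were 2.74 ± 0.10 (SE) and 2.75 ± 0.10 (SE).

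The peptide editors moved in the same direction. H2-Ob, the beta chain of the DO molecule that restrains peptide exchange, read 11.26, 11.11, 11.29, 11.05 and 11.03 at 48 h, against 7.81, 7.58, 8.04, 7.72 and 7.54 at 24 h, and its log2 change was 3.41 ± 0.10 (SE) (adjusted p = 1.13e-18). H2-Oa, its alpha chain, rose by 2.62 ± 0.08 (SE), H2-DMa by 2.08 and H2-DMb1 by 2.04. Proteases that cut the invariant chain and antigen rose less, Ctss by 1.16 and Lgmn by 1.83, and the thiol reductase Ifi30 by 1.07. The X box factors changed little: Rfxank had a log2 change of 0.21 and Rfxap of 0.24, both called although the times overlapped, and the ubiquitin ligase Marchf1, which removes class II from the surface, had 0.20 and was not called (adjusted p = 0.0975). Without the 3 arrays of 24 h that stood apart, 15 of the 17 members were called higher, Rfxank no longer, and the median was 2.16.

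Class I presentation was mixed. Of 20 members tested, 9 were higher and 5 lower, with a median of 0.22. H2-T23, H2-M3, H2-D1 and B2m rose by 1.29, 1.05, 1.00 and 0.92, as did the class I coactivator Nlrc5 (0.85) and the peptide transporter Tap1 (0.85). The immunoproteasome split, Psmb9 rising by 1.18 while Psmb10, Psmb8 and the activator subunit Psme2 changed by -0.73, -0.46 and -1.36. Class I genes are near copies of one another, so their probes may share signal.

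**Figure D2:**
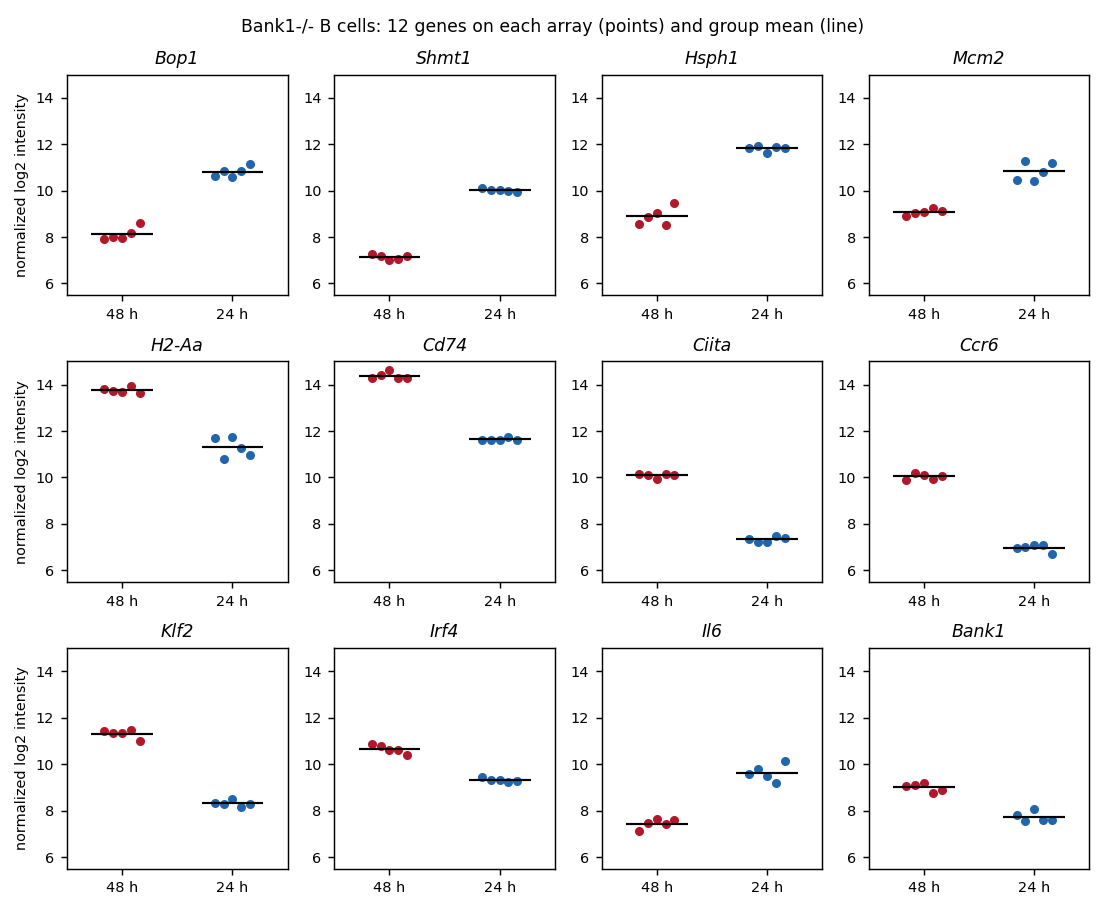
Normalized log2 intensity of 12 genes on each Bank1-/- array, 48 h left (red) and 24 h right (blue), with the group mean as a line. Bop1, Shmt1, Hsph1, Mcm2 and Il6 lie lower on every 48 h array, and H2-Aa, Cd74, Ciita, Ccr6, Klf2, Irf4 and Bank1 higher.

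Genes that build ribosomes fell together. Of 51 (of 60 listed) ribosome biogenesis factors tested, 46 were lower at 48 h and 1 was higher, and their median log2 change of -1.58 was the lowest of the lists. Bop1, a factor of large-subunit maturation, read 7.92, 8.00, 7.96, 8.15 and 8.58 at 48 h, against 10.62, 10.86, 10.61, 10.86 and 11.14 at 24 h. Its log2 change was -2.69 ± 0.12 (SE) with an adjusted p of 1.33e-15, and the times did not overlap, while a second, dimmer Bop1 probe changed by -0.57. Ncl, the nucleolar protein nucleolin, read 8.92, 9.49, 9.14, 8.85 and 9.56 at 48 h, against 11.62, 11.32, 11.56, 11.32 and 11.39 at 24 h. It fell on every 48 h array, with a log2 change of -2.25 ± 0.12 (SE). Mybbp1a, Rrp1b, Mrto4, Gar1, Nop14, Grwd1 and Nop56 changed by -2.51, -2.44, -2.37, -2.33, -2.20, -2.14 and -2.11. The RNA polymerase I subunits Polr1b, Polr1e and Polr1a changed by -1.68, -1.56 and -1.27. Taf1d was the member called higher (0.69), but its times overlapped and the call was lost without the 3 arrays that stood apart (0.21, adjusted p = 0.295). The E box CACGTG, to which Myc and Max bind, was found on 2 of 49 promoters (4.1%) of 47 of these genes, against 6.0% of all 32851.

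The ribosomal proteins themselves did not follow. Of 51 cytosolic ones tested, 11 were higher, 8 lower and 32 not called, with a median of 0.00093. Many of these probes were among the brightest on the arrays, and their genes have near-identical pseudogenes. Mitochondrial ribosomal proteins were lower in 61 of 72 tested and higher in 1, with a median of -0.79. Mrpl42, Mrpl12 and Mrps22 changed by -2.04, -1.95 and -1.77, and Mrpl43 rose by 0.50. Of the nuclear-encoded respiratory chain, 45 of 68 members were lower and 6 higher, with a median of -0.47. Under median scaling 24 mitochondrial ribosomal and 14 respiratory chain members were called lower, against 33 respiratory chain members without the 3 arrays that stood apart. Ndufab1, Ndufa5 and Ndufa12 of complex I changed by -1.58, -1.55 and -1.52, and Cycs, cytochrome c, by -1.30, while Cox7a2l, an assembly factor of supercomplexes, rose by 1.49. In the TCA cycle 6 of 23 were higher and 6 lower, with a median of -0.14; Idh3a and Pdhb changed by -1.23 and -1.05 and Idh2 and Suclg2 by 1.31 and 1.49.

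Supply of nucleotides, folate units and polyamines fell as well. Of 25 nucleotide synthesis genes tested, 21 were lower and 4 higher, with a median of -1.32. Ppat, the entry enzyme of purine synthesis, read 7.93, 8.04, 7.86, 7.84 and 7.86 at 48 h, against 10.52, 10.16, 10.33, 10.24 and 10.03 at 24 h. Its log2 change was -2.35 ± 0.09 (SE), with no overlap, although a second probe changed by -0.50. Umps and Ctps of pyrimidine synthesis changed by -2.16 and -2.0, Tyms, thymidylate synthase, by -1.91, and Rrm2, the regulatory subunit of ribonucleotide reductase, by -1.44. Dctd and Dctpp1, which set the pools of deoxycytidylates, were not on that list and changed by -2.87 and -2.45. Prps2, which makes the ribose donor, rose by 1.08 while its relative Prps1 changed by -1.11. CACGTG occurred in 6 of 29 promoters (20.7%) of 23 of these genes.

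Of 11 serine, folate and asparagine enzymes, 10 were lower and 1 higher, with a median of -1.27. Shmt1, the cytosolic serine hydroxymethyltransferase, read 7.27, 7.19, 7.01, 7.07 and 7.17 at 48 h, against 10.12, 10.03, 10.03, 10.00 and 9.92 at 24 h. It changed by -2.88 ± 0.08 (SE), with an adjusted p of 3.52e-19. Mthfd2 and Shmt2 of the mitochondrial folate cycle changed by -1.98 and -1.83, Phgdh, the entry enzyme of serine synthesis, by -1.84, and Asns, asparagine synthetase, by -1.27. The called rise was that of Gldc, of the glycine cleavage system (0.52), and it was lost without the 3 arrays that stood apart (0.25, adjusted p = 0.254). Among 7 polyamine genes, 4 were lower and 2 higher, with a median of -1.42: Srm, spermidine synthase, changed by -2.47, Odc1, the rate-limiting decarboxylase, by -1.81, and Eif5a, the protein that carries hypusine, by -1.67.

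Aminoacyl-tRNA synthetases were lower in 16 of 22 and higher in 3, with a median of -1.2. Lars, Iars and Mars1 changed by -1.88, -1.83 and -1.75, and the scaffold proteins Eef1e1 and Aimp2 by -2.12 and -1.95. Vars and Qars went the other way (1.19 and 0.50). Amino acid transporters gave 4 higher and 5 lower of 11, with a median of -0.04. Slc3a2, the shared heavy chain of several transporters, changed by -1.60, and Slc38a9, the lysosomal arginine sensor, rose by 1.2. Of 16 integrated stress response genes 5 were higher and 7 lower, with a median of -0.10 that was 0.10 without the 3 arrays that stood apart. Trib3, a pseudokinase induced by Atf4, changed by -1.84 and Atf4 by -0.61, while Ddit4, an inhibitor of mTORC1, rose by 1.21.

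Chaperone genes of the cytosol and mitochondria and constitutive proteasome genes fell. Of 24 chaperone genes tested, 20 were lower and 1 higher, with a median of -0.97. Besides Hsph1, Cct6a and Cct3 of the TRiC chaperonin changed by -2.01 and -1.52, Hsp90aa1 by -1.73, and Hspd1 and Hspa9 of the mitochondrial matrix by -1.72 and -1.90. Constitutive proteasome subunits were lower in 23 of 27 and higher in 1, with a median of -1.02. Psmd7 changed by -1.77, with another of its 3 probes at 0.71, and Psmd11, Psmd12 and Psmc2 changed by -1.53, -1.52 and -1.52. Under median scaling 13 chaperone genes and 14 proteasome subunits were called lower.

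Myc, a transcription factor known to drive growth genes, read 6.73, 6.35, 6.27, 6.50 and 6.50 at 48 h, against 7.12, 7.82, 6.81, 7.24 and 6.84 at 24 h. The times did not overlap, and the log2 change was -0.69 ± 0.15 (SE) (adjusted p = 0.000194). The 48 h signals lay near the detection limit of those arrays, between 6.28 and 6.47, so the size of the fall is uncertain. The antagonists of Myc rose: Mxi1 by 1.52, Mxd4 by 1.15 and Mxd1 by 0.76. In the Myc and Max network as a whole 4 of 10 were higher and 1 lower, with Max at 0.18 and not called.

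DNA replication genes fell almost throughout. Of 45 (of 47 listed) members tested, 43 were lower, 0 higher and 2 not called, with a median of -1.12; under median scaling 22 were still called lower. Mcm2, of the replicative helicase, read 8.90, 9.02, 9.06, 9.24 and 9.12 at 48 h, against 10.48, 11.27, 10.43, 10.81 and 11.18 at 24 h. Mcm5, of the same ring, read 11.40, 11.19, 11.20, 11.46 and 11.39 at 48 h, against 13.05, 12.89, 12.97, 13.11 and 13.01 at 24 h. Neither overlapped between the times, and they changed by -1.76 ± 0.13 (SE) and -1.68 ± 0.09 (SE). Gins1 and Cdc45, which complete the helicase, changed by -1.86 and -1.59, and Pold2, of DNA polymerase delta, by -1.80. Pcna, the sliding clamp, changed by -1.2 with overlapping arrays. CCAAT occurred in 27 of 45 promoters (60.0%) of 35 of these genes, against 33.8% of all promoters, those of genes not tested here included.

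Histone genes were lower in 30 of 43 and higher in 7, with a median of -0.84. H3c7, H3c1, H3c6 and H2bc21 changed by -2.58, -2.57, -2.50 and -2.44, and H2az1, a variant incorporated outside replication, by -1.17. Another kept H3c7 probe changed by only -0.08. H2bc4, H2ax and H1f2 rose by 1.22, 1.19 and 0.91. The replication-dependent histone genes are near-identical copies whose probes may share signal, and the oligo-dT priming named in the labels reads them poorly, since most of their mRNA has no poly(A) tail.

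Mitosis genes did not shift in this way. Of 54 (of 64 listed) members tested, 12 were higher, 20 lower and 22 not called, with a median of -0.04. Under median scaling 2 were called lower, and the median relative to that of all genes was 0.06, against -0.06 as reported. Cenpa, the centromeric histone, rose by 1.23, Aspm, of the spindle poles, by 0.91 and Cdc25b by 0.88. Mybl2, a transcription factor active from the G1/S boundary, changed by -1.32 and Melk by -0.89. Cdk1, Top2a and Aurka had log2 changes of 0.01, 0.00 and -0.05 and were not called. Among cyclins, their inhibitors and E2F factors 7 of 27 were higher and 13 lower, with a median of -0.02 (6 were called lower under median scaling). Among the lower members were Ccne2 with -1.67, Cdk4 with -1.41, Tfdp1 with -1.23 and Cdc25a with -1.11. Ccng2, a cyclin found in cells that leave the cycle, read 11.31, 11.48, 11.51, 11.16 and 10.98 at 48 h, against 8.87, 8.31, 9.27, 8.30 and 8.79 at 24 h, and rose by 2.58 ± 0.15 (SE) with no overlap. The inhibitor Cdkn2d and the retinoblastoma gene Rb1 rose by 1.64 and 1.36, whereas Cdkn1b and Cdkn1a were not called (-0.02 and 0.11).

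**Figure D3:**
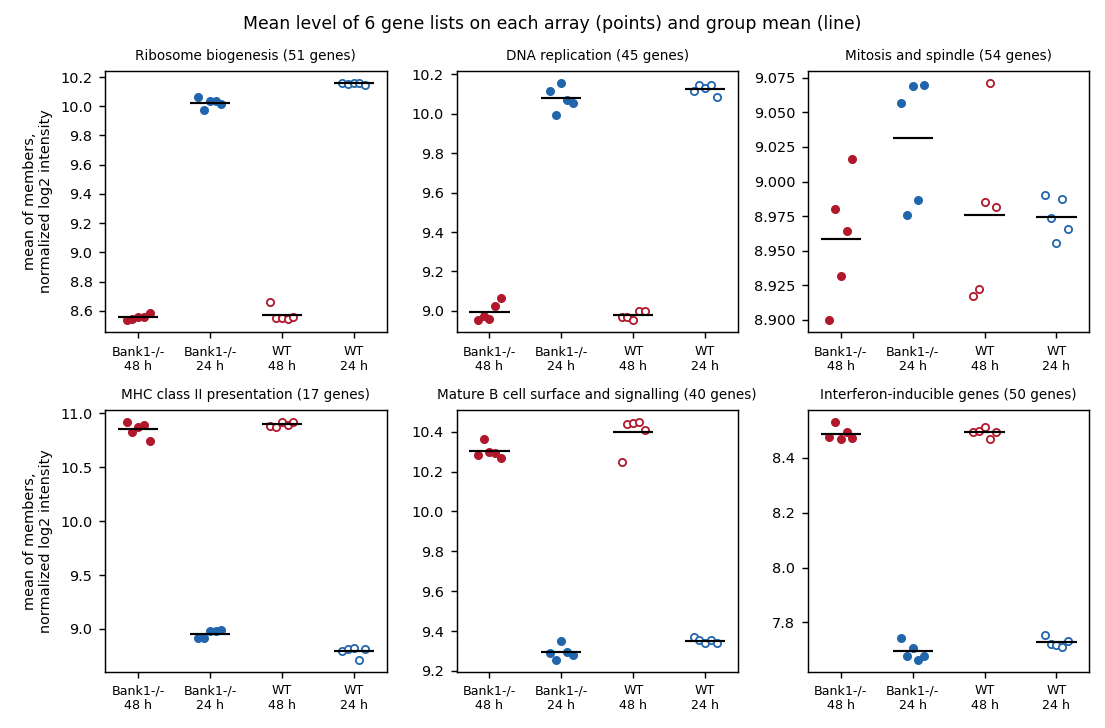
Mean normalized log2 intensity of the tested members of 6 gene lists on each array, with Bank1-/- 48 h, Bank1-/- 24 h, WT 48 h and WT 24 h side by side and group means as lines; the vertical axes differ between panels and do not start at 0. Ribosome biogenesis and DNA replication lie lower at 48 h on every array of both genotypes, MHC class II, mature B cell and interferon-inducible genes higher, and the mitosis list overlaps between the times.

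Genes of the mature B cell surface and its receptor signalling rose. Of 40 (of 47 listed) members tested, 32 were higher and 1 lower, with a median of 0.83. Blk, a Src family kinase of B cells, read 11.39, 11.51, 11.51, 11.49 and 11.07 at 48 h, against 8.71, 8.5, 8.91, 8.83 and 8.71 at 24 h. Cd22, an inhibitory co-receptor, read 12.23, 12.38, 12.26, 12.18 and 12.36 at 48 h, against 9.93, 10.42, 10.11, 10.09 and 10.33 at 24 h. Both were higher on every 48 h array, with log2 changes of 2.66 ± 0.12 (SE) and 2.11 ± 0.13 (SE), while 1 of 3 Cd22 probes changed by 0.14. Ptpn22, a phosphatase that restrains antigen receptor signals, rose by 3.04 ± 0.14 (SE), and the inhibitory molecules Siglecg, Cd72, Btla and Fcgr2b rose by 2.06, 1.91, 1.73 and 1.66. On the activating side Cd79b, a signalling chain of the receptor, rose by 1.90, Syk by 1.37, Btk by 0.65 and Ms4a1 (CD20) by 1.14. The exception was Dapp1, an adaptor downstream of PI3K (-0.54), and Cr2, Plcg2 and Vav1 were not called. Cd24a had a log2 change of 0.00 across its overlapping arrays, and -0.76 with a call (adjusted p = 0.0145) without the 3 arrays that stood apart.

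B cell transcription factors were higher in 25 of 30 and lower in 3, with a median of 0.64. Pou2f2 (Oct-2) and Ets1 rose by 2.15 and 1.73, Irf8 by 1.49, Bcl11a by 1.31 and Foxp1 by 1.19. Batf, an AP-1 partner needed for class switching, changed by -1.21 and Ikzf3 by -0.58. Klf2, a factor of quiescence and trafficking, read 11.45, 11.36, 11.33, 11.47 and 11.02 at 48 h, against 8.35, 8.30, 8.51, 8.15 and 8.27 at 24 h. Its log2 change was 3.01 ± 0.13 (SE) with an adjusted p of 1.14e-15, and the times did not overlap.

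The early-response list held 18 higher and 0 lower of 20, with a median of 1.17. Egr3, a zinc finger factor induced by antigen receptor signals, read 9.75, 9.79, 9.80, 9.77 and 9.70 at 48 h, against 6.83, 6.63, 6.64, 6.49 and 6.71 at 24 h. It was detected on 3 of the 5 arrays of 24 h and rose by 3.10 ± 0.08 (SE), with an adjusted p of 7.64e-20, the smallest of all genes. Egr1 and Egr2 rose by 1.96 and 1.71, and Btg1, an antiproliferative gene, by 2.24. The mRNA decay factors Zfp36 and Zfp36l1 rose by 1.73 and 1.49. Of 9 AP-1 genes 4 were higher and 2 lower (median 0.27), with Junb at 1.36, Jund at 1.33, Jun at 0.90 and Mafg at -1.02.

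Homing receptors and Rgs genes were higher in 13 of 18 and lower in 3, with a median of 0.60. Ccr6, the receptor for CCL20, read 9.91, 10.20, 10.09, 9.95 and 10.06 at 48 h, against 6.96, 7.0, 7.08, 7.07 and 6.70 at 24 h. Cxcr4, the receptor for CXCL12, read 9.79, 9.78, 9.75, 9.38 and 8.58 at 48 h, against 7.66, 6.36, 7.85, 7.13 and 6.62 at 24 h. Both rose without overlap, by 3.08 ± 0.10 (SE) and 2.33 ± 0.23 (SE). Gpr183, which guides B cells to follicle edges, rose by 1.67 and Cxcr5, which guides them into follicles, by 1.47. Ccr7 was not called (0.04), and Itgal, a chain of LFA-1, changed by -0.84. Among costimulatory and activation molecules 15 of 27 were higher and 4 lower (median 0.32). Cd53, Slamf7 and Slamf1 rose by 1.52, 1.39 and 1.22, Icam1 by 0.98 and Cd86 by 0.61. Tfrc, the transferrin receptor of dividing cells, changed by -1.09 and Cd44 by -0.76, and Cd40 was not called (-0.01).

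**Figure D4:**
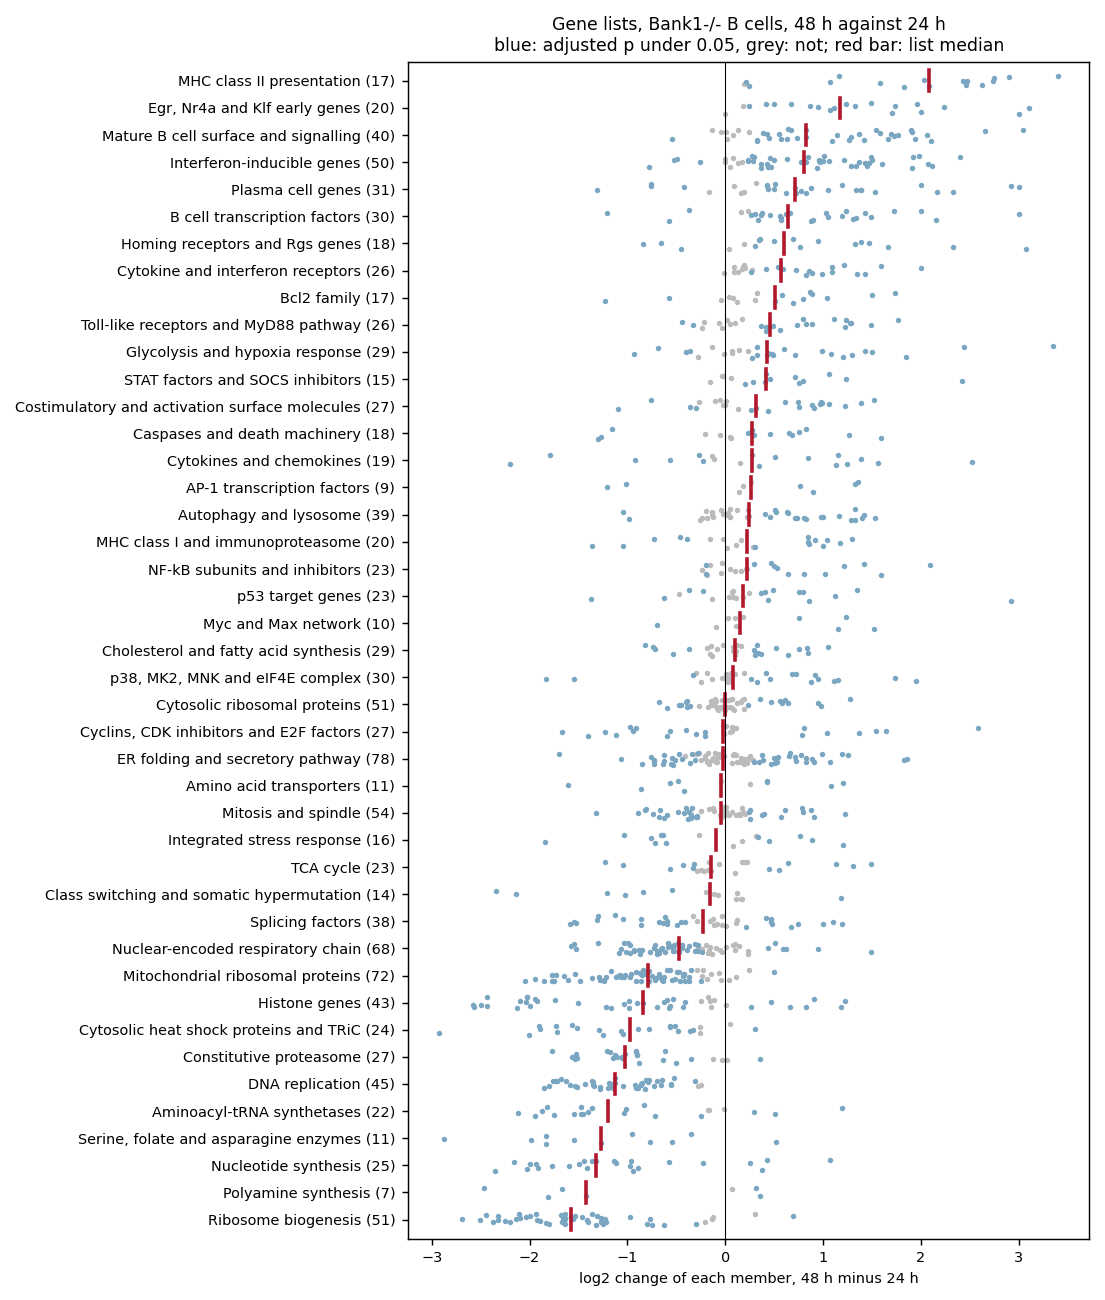
Log2 change between 48 h and 24 h of each tested member of 43 gene lists in Bank1-/- cells (horizontal axis), with lists ordered by their median (red bar), the number of tested members in parentheses, and called members in blue. Ribosome biogenesis lies at the bottom with a median of -1.58 and MHC class II presentation at the top with 2.08.

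Plasma cell genes were higher in 22 of 31 and lower in 4, with a median of 0.72. Irf4, the dose-dependent switch factor of plasma cells, read 10.87, 10.80, 10.62, 10.63 and 10.39 at 48 h, against 9.47, 9.35, 9.31, 9.23 and 9.28 at 24 h. Prdm1 (Blimp-1), which represses the B cell programme, read 6.67, 6.93, 6.70, 7.19 and 7.13 at 48 h, against 6.49, 6.14, 6.64, 6.09 and 6.15 at 24 h. Neither overlapped between the times, and they rose by 1.33 ± 0.09 (SE) and 0.62 ± 0.13 (SE), Prdm1 being detected on 2 of 5 arrays at 24 h. Xbp1, the secretory regulator, rose by 0.72, Bhlha15 (Mist1) by 1.53, and Slpi and Trp53inp1 by 2.0 and 2.92. Jchain, the joining chain of secreted antibody, was not detected at 24 h, so that its rise was at least 1.04-fold, and its arrays overlapped. Sdc1 and Tnfrsf17, further plasma cell markers, did not pass the detection filter. The lower members included Ly6d (-1.31) and Cd44. Some gene lists share members, so their counts are not independent. Cd44 is also among the costimulatory and activation molecules. The largest rise of the plasma cell list, 3.01, is also that of the B cell transcription factors.

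The ER folding and secretory genes did not move as a group. Of 78 (of 89 listed) tested, 24 were higher, 20 lower and 34 not called, with a median of -0.03. Under median scaling 2 were called lower, and the median relative to that of all genes was 0.03, against -0.04 as reported. Ero1b, an ER oxidase, and Sec24d, a COPII coat protein, rose by 1.86 and 1.83, and the Xbp1 targets Sec11c and Fkbp11 by 1.25 and 1.19. Srp54a, of the signal recognition particle, changed by -1.70, Sdf2l1 by -1.07 and Ddost by -0.85. Calr was not called, and Hspa5 (BiP) had -0.41 without a call, but -1.22 with one (adjusted p = 0.000798) without the 3 arrays that stood apart. Of 14 class switching and hypermutation genes 1 was higher and 6 lower, with a median of -0.16. Apex1 and Ung, which act in the repair of uracils left by the deaminase, changed by -2.35 ± 0.13 (SE) and -2.13 ± 0.14 (SE), with no overlap, and Msh6 by -1.02.

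Cytokines split. Of 19 (of 48 listed) members that passed the detection filter, 10 were higher and 6 lower, with a median of 0.27. Il6, the cytokine in the study's title, read 7.13, 7.48, 7.64, 7.41 and 7.59 at 48 h, against 9.59, 9.81, 9.50, 9.20 and 10.13 at 24 h. Every 48 h array lay below every 24 h array, and the log2 change was -2.20 ± 0.16 (SE), a 4.59-fold fall with an adjusted p of 1.70e-11. Ccl3 and Ccl4, neighbouring chemokine genes, went opposite ways. Ccl3 read 8.97, 8.85, 8.78, 8.87 and 9.48 at 48 h, against 10.59, 11.03, 10.20, 11.05 and 11.03 at 24 h, and Ccl4 read 11.12, 11.25, 11.08, 11.25 and 11.05 at 48 h, against 8.61, 8.34, 8.63, 8.66 and 8.88 at 24 h. Their log2 changes were -1.79 ± 0.18 (SE) and 2.53 ± 0.09 (SE), with no overlap in either. Ebi3 and Tnf changed by -0.92 and -0.57, and Il10, an inhibitory cytokine, Ltb and Il12a rose by 0.85, 1.24 and 1.56.

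Receptors for cytokines were higher in 16 of 26 and lower in 0, with a median of 0.57. Il7r rose by 2.0, Il10ra by 1.59, Tgfbr2 by 1.43, Il2ra by 1.21 and the BAFF receptor gene Tnfrsf13c by 1.09. STAT and SOCS genes were higher in 11 of 15, with none lower and a median of 0.41. Socs3, an inhibitor of IL-6 receptor signalling, read 11.90, 12.13, 12.06, 12.01 and 12.08 at 48 h, against 9.62, 9.64, 9.76, 9.63 and 9.40 at 24 h. It rose by 2.43 ± 0.11 (SE) with no overlap, and Stat4 and Stat2 rose by 1.24 and 1.06.

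Interferon-inducible genes rose. Of 50 (of 70 listed) members tested, 40 were higher and 4 lower, with a median of 0.80. Ifitm2, a membrane restriction factor, read 10.45, 9.85, 10.23, 10.48 and 10.50 at 48 h, against 7.70, 8.27, 7.56, 7.93 and 8.03 at 24 h. Samd9l read 12.24, 12.74, 12.54, 12.27 and 12.48 at 48 h, against 10.37, 10.05, 10.51, 10.26 and 10.51 at 24 h. Neither overlapped, and they rose by 2.40 ± 0.13 (SE) and 2.12 ± 0.10 (SE). Sp100, Trim30a and Phf11a rose by 2.08, 1.98 and 1.92, and the factors Irf9, Irf2 and Irf1 by 1.49, 1.45 and 1.43. Isg15 rose by 0.36, Usp18 by 0.46 and Ifit2 by 0.43, and Mx2 was not called (0.08). Bst2, a tetherin of budding viruses, was the lowest member (-0.78).

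In the Toll-like receptor and MyD88 list 16 of 26 were higher and 2 lower, with a median of 0.46. Unc93b1, which carries TLR9 to endosomes, rose by 1.22, Tlr1 by 1.27, the inhibitory receptor Sigirr by 1.23, Nrros by 1.49 and Irak1 by 1.11. Among NF-kB subunits and inhibitors 11 of 23 were higher and 2 lower (median 0.22). The atypical inhibitor Bcl3 rose by 2.09, Birc2 by 1.59, Map3k14 (NIK) by 1.42 and Nfkbie by 1.22, while the subunit Nfkb2 was not called (-0.03). Rel had a log2 change of -0.19 and was not called, but was -0.51 and called (adjusted p = 0.0013) without the 3 arrays that stood apart.

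In the p38, MNK and eIF4E list, which follows the study's title, 13 of 30 were higher, 3 lower and 14 not called, with a median of 0.08. The 2 genes for eIF4E-binding proteins, which block cap-dependent translation, moved apart. Eif4ebp1 read 10.50, 10.56, 10.76, 10.55 and 10.52 at 48 h, against 12.42, 12.39, 12.33, 12.29 and 12.60 at 24 h, and Eif4ebp2 read 10.53, 10.29, 9.92, 10.34 and 9.55 at 48 h, against 8.12, 8.29, 8.31, 8.10 and 8.05 at 24 h. Their log2 changes were -1.83 ± 0.09 (SE) and 1.95 ± 0.18 (SE), and neither overlapped. Eif4a1, the cap-complex helicase, changed by -1.54 and its relative Eif4a2 by 0.72. Mapk14 (p38 alpha), Mapk11 and the MNK kinase gene Mknk2 rose by 0.88, 0.92 and 1.11.

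Glycolysis and hypoxia genes were higher in 18 of 29 and lower in 4, with a median of 0.43. Ankrd37, a target of HIF, read 11.84, 11.85, 12.02, 11.68 and 11.61 at 48 h, against 9.03, 9.00, 10.15, 8.88 and 9.71 at 24 h. It rose by 2.45 ± 0.18 (SE), and the HIF targets Kdm3a, Bnip3l, Egln3 and Ndrg1 rose by 1.85, 1.5, 1.30 and 1.08. Of the glycolytic enzymes Pgk1 rose by 1.42, although a second probe changed by -0.16, Aldoa rose by 0.49 and Gapdh by 0.33, Pfkp changed by -0.93, and Ldha and Tpi1 were not called. Cholesterol and fatty acid genes were higher in 11 of 29 and lower in 5 (median 0.10), with Elovl5 at 1.05, Scd1 at 0.84 and Fdps at -0.53, and the regulator Srebf1 not called.

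In the Bcl2 family 9 of 17 were higher and 2 lower, with a median of 0.51. The killer gene Bcl2l11 (Bim) rose by 1.73 with its 3 probes between -0.26 and that value, and Bmf and Bbc3 by 0.87 and 0.80. The protectors Mcl1 and Bcl2 rose by 1.04 and 0.88, and Bcl2a1c changed by -1.23. Caspase and death genes were higher in 10 of 18 and lower in 3 (median 0.27), with Casp4 at 1.27, Diablo at -1.27 and Fadd at -1.16. Of 23 p53 targets 10 were higher and 4 lower (median 0.18), the higher share of 43.5% standing near the 35.6% of all genes, with Zmat3 and Gadd45a rising by 1.35 and 1.12, while Cdkn1a and Mdm2 were not called. Autophagy and lysosome genes were higher in 19 of 39 and lower in 2 (median 0.24), among them the proteases Ctsh and Tpp1 (1.53 and 1.42) and Gabarap and Map1lc3b (1.33 and 1.32). Splicing factors were higher in 10 of 38 and lower in 17, with a median of -0.23 and 6 members called lower under median scaling; the kinases Clk4, Clk3 and Clk1 rose by 1.2, 1.10 and 1.00, and Hnrnpa2b1, Tra2b and Hnrnpf changed by -1.59, -1.54 and -1.52.

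Markers of other cells were mostly below detection. Of 14 T cell markers 4 passed the filter, and Cd3e, Cd4, Cd8a and Thy1 did not. Il7r was called higher without overlap, Cd8b1 and Zap70 with overlapping arrays, and Lat was not called. The mean log2 intensity of those 4 ran between 7.90 and 8.12 at 48 h and between 7.32 and 7.41 at 24 h. Of 23 myeloid markers Lyz1 and Adgre1 passed, their mean between 6.90 and 7.12 at 48 h and between 6.23 and 6.43 at 24 h, and Itgam, Csf1r and Lyz2 did not pass. Prf1, 1 of 10 NK markers, had a log2 change of 0.65 with overlapping arrays and lost its call when 24 h replicate 1 or 3 or 48 h replicate 4 or 5 was left out (0.55, 0.51, 0.64 and 0.47), and Ncr1 and Klrb1c did not pass. Of 11 dendritic markers Siglech had a log2 change of 0.50 with overlapping arrays and Bst2 and Xcr1 were lower, Itgax and Flt3 not passing. Of 17 erythroid markers Hbb-bs and Hbb-bt were not called and Tfrc was lower, and Gp9, 1 of 10 platelet markers, was not called. Of 5 sex-linked markers Eif2s3y rose by 1.12, Kdm5d had 0.67 with overlapping arrays, Uty was not called and Xist did not pass. The part of other cells in the results was not tested.

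Set beside WT, most of the called genes were shared. In WT 6050 genes (68.3%) were called, and 5219 were called in both genotypes in the same direction, 87.0% of the Bank1-/- calls and 86.3% of the WT calls, with 2 called in opposite directions. The difference of the changes, Bank1-/- minus WT, was called for 8 genes (0.0903%), and 864 had an unadjusted p under 0.05. None of the 8 was called under median scaling, where their adjusted p ran between 0.0777 and 0.999. The median of the MHC class II list was 2.08 in Bank1-/- and 2.47 in WT cells, and that of ribosome biogenesis -1.58 in Bank1-/- and -1.63 in WT cells; these differences of medians were not tested.

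**Figure D5:**
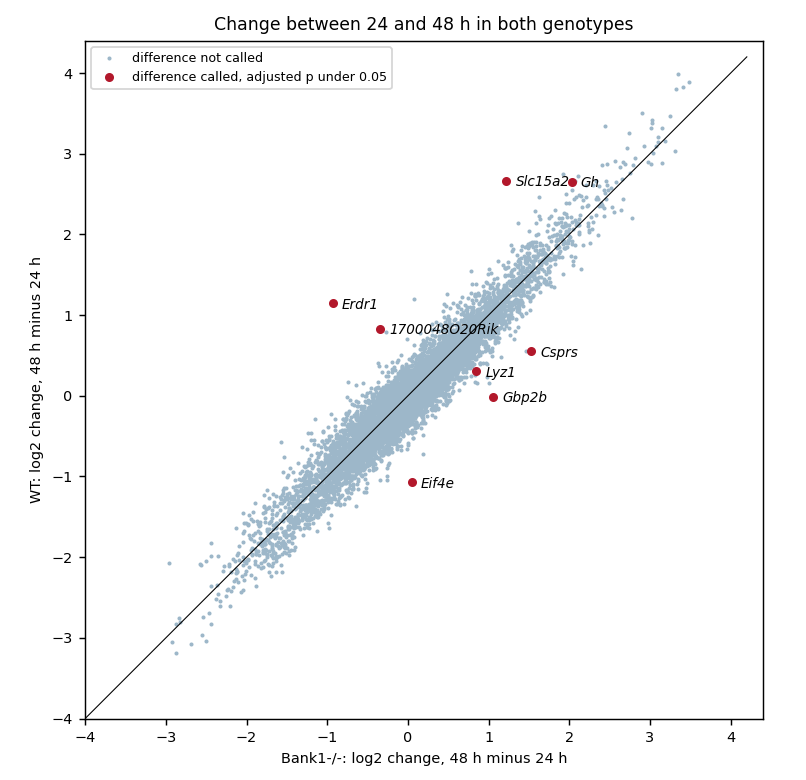
Log2 change between 48 h and 24 h of 8861 genes in Bank1-/- cells (horizontal axis) and in WT cells (vertical axis), with the line of equal change. The 8 genes whose difference was called are labelled, and Erdr1 lies below 0 in Bank1-/- and above 0 in WT cells.

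Erdr1, named as an erythroid differentiation regulator and encoded on the X chromosome, moved in opposite directions. In Bank1-/- cells it read 11.30, 11.36, 11.07, 11.12 and 11.39 at 48 h, against 12.23, 12.18, 12.26, 12.13 and 12.10 at 24 h. In WT cells it read 11.85, 12.77, 12.54, 12.56 and 12.62 at 48 h, against 11.20, 11.39, 11.47, 11.29 and 11.27 at 24 h. The changes were -0.93 in Bank1-/- and 1.14 in WT cells, without overlap in either. Their difference was -2.08 ± 0.17 (SE) with a limma adjusted p of 8.14e-08. These values are those of the Erdr1 probe used, and another kept Erdr1 probe changed by only 0.02 in Bank1-/- cells. Slc15a2, a peptide transporter, rose by 1.22 in Bank1-/- and 2.67 in WT cells, a difference of -1.44 ± 0.15 (SE) (adjusted p = 2.27e-06). In Bank1-/- cells Slc15a2 was detected on 3 of 5 arrays at 24 h, so the size of its rise there is less certain.

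Gbp2b, an interferon-inducible GTPase encoded on chromosome 3, read 8.03, 8.12, 7.97, 7.86 and 8.10 at 48 h, against 7.03, 6.91, 6.95, 6.93 and 6.96 at 24 h in Bank1-/- cells. In WT cells it read 6.2, 6.38, 6.35, 6.27 and 6.45 at 48 h, against 6.19, 6.39, 6.47, 6.23 and 6.43 at 24 h. Its log2 change was 1.06 in Bank1-/- and -0.01 in WT cells, a difference of 1.07 ± 0.11 (SE) (adjusted p = 2.27e-06). The WT signals lay near the detection limit of those arrays, between 6.281 and 6.405, so a WT change could go unseen. Eif4e, the cap-binding protein, also on chromosome 3, read 6.24, 6.29, 6.41, 6.58 and 6.16 at 48 h, against 6.30, 6.13, 6.73, 6.15 and 6.14 at 24 h in Bank1-/- cells. In WT cells it read 7.34, 7.27, 6.96, 7.07 and 7.11 at 48 h, against 8.26, 8.35, 8.10, 8.25 and 8.16 at 24 h. The Bank1-/- arrays were near the detection limit, 3 of 5 detected at 48 h and 1 of 5 at 24 h, and their change was 0.05, against -1.07 in WT cells, a difference of 1.12 ± 0.15 (SE) (adjusted p = 0.000337). Bank1 itself also lies on chromosome 3. Whether the Eif4e and Gbp2b probes match the sequence that the mutant mice carry there was not tested. A low Eif4e signal in Bank1-/- cells may therefore not mean little RNA. For Gbp2b the lower signals were those of WT cells, and whether its probe matches the WT sequence was not tested either.

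For 1700048O20Rik the change was -0.35 in Bank1-/- and 0.83 in WT cells, and for Csprs 1.52 in Bank1-/- and 0.55 in WT cells, with differences of -1.18 ± 0.19 (SE) and 0.97 ± 0.16 (SE) (adjusted p = 0.00456 and 0.00633). Gh, growth hormone, was not detected at 24 h in either genotype and rose at least 3.18-fold in Bank1-/- cells. Lyz1 was likewise undetected at 24 h and rose at least 1.28-fold in Bank1-/- cells. The difference was called for both (adjusted p = 0.0230 and 0.0302), and no size is given because the 24 h signals are only bounds. Either call was lost when certain single arrays were left out, 6 for Gh and 12 for Lyz1, and under the replicate block. Gbp3 and Ifi27, next in rank, had an adjusted p of 0.0784 and 0.0784 and were not called.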

How the data were processed

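The authors deposited a table of probe intensity on a linear scale that is not normalized, per the file headers, and a series table of log2 intensity whose processing the headers do not state; 8 columns of the first match no sample and were not used. From the deposited intensity, normexp background correction (offset 50), quantile normalization over 20 arrays and log2 were computed with limma 3.58.1 in R 4.3.3. A probe was detected above the 99th percentile of 1287 olfactory receptor probes of its array, and probes passing this on 5 or more of the 20 arrays were kept. Of 45281 probes 34885 had 1 gene symbol in the platform annotation. A check of symbols through Entrez identifiers against GRCm38.p6 altered 0 of them. The filter kept 16935 probes, of which 14191 had 1 gene symbol and were used. The kept probe with the highest mean represented each of 8861 genes; of 3563 genes with several kept probes, 295 had probes called in opposite directions.

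Genes were fitted by lmFit and eBayes, 1 coefficient per group (Bank1-/- or WT, 48 h or 24 h; 5 arrays each) and 16 residual degrees of freedom. Contrasts were 48 h minus 24 h in each genotype and their difference. Tests were two-sided, adjusted by Benjamini-Hochberg over 8861 genes and called under 0.05. The fit was also run on data simulated from the group means and spreads of these arrays. A gene detected on no array of a group is given a lower bound, for which each array enters at its own value or at the detection limit, whichever is higher. The number of arrays limits the precision.

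Samples were grouped by their labels. The members, the 51 gene lists and the tests were chosen with earlier results of these data known. Named are the 15 largest rises and falls without overlap, the 10 smallest p-values of the contrast and of the difference, Bank1, Il6, Eif4e, Nnt, cell markers, and up to 12 members per list by p or because the list's name turns on them; other members, and those named as not called, were chosen after their values were seen. The background correction, normalization, filter, arrays in the fit, covariates, weights, replicate block, choice of probe and single arrays were varied. Promoters are from RefSeq, and figures were drawn with Python 3.11.15 and matplotlib 3.10.9.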

Additional observations from a re-analysis of the deposited data

Results flagged for a closer look

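Among 756 groups of 5 Bank1-/- arrays (the named genes, the list means and the raw brightness at each time), 34 (4.5%) held 1 array whose gap to its nearest neighbour was more than 0.71 of the group's range, where chance gives about 1 in 20. The numbers in parentheses are that gap over the range. At 48 h the lowest array stood apart for Aldoc, Blk, Calr, Cdkn1a, Ciita and Gadd45g (0.776, 0.721, 0.840, 0.795, 0.911 and 0.847), then H2-Ab1, H2-Eb1, Irak1, Jund, Mapk14 and Rb1 (0.752, 0.789, 0.736, 0.810, 0.842 and 0.717). The highest 48 h array stood apart for Ccl3, Eif4ebp1, Il4i1, Irf9, Mrpl42 and Ndufa5 (0.728, 0.755, 0.811, 0.766, 0.831 and 0.774), then Rfxap (0.720). At 24 h the lowest array stood apart for Cdkn2d, Eif2s3y, Psmb10 and Usp18 (0.742, 0.905, 0.756 and 0.732). The highest 24 h array did so for Ccr7, Cd74, Fcgr2b, H2-M3, Ldha and Ltb (0.869, 0.796, 0.789, 0.850, 0.769 and 0.734), then Ndrg1, Rrm2 and Zfp36 (0.728, 0.899 and 0.795). Among list means the lowest 48 h array stood apart for the integrated stress response (0.764) and for homing receptors and Rgs genes (0.774).

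The 24 to 48 h change differed between Bank1-/- and WT cells, by the test of the difference, for 8 genes. The differences, Bank1-/- minus WT on the log2 scale, were -2.08 for Erdr1, -1.44 for Slc15a2, -1.18 for 1700048O20Rik, 1.12 for Eif4e, 1.07 for Gbp2b and 0.97 for Csprs. Gh and Lyz1 had fitted differences of -0.62 and 0.54, which are no measured sizes because neither was detected at 24 h.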

How the results depend on the processing

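The count of called genes in Bank1-/- cells was 5996 of 8861 as reported. Apart from median scaling and leaving out arrays, it ran from 5120 (all 40 arrays in the fit) to 6133 (no dim-probe filter). The 6133 were out of 19057 genes, a smaller share than that reported. Median scaling gave 3921 calls, 78.3% of them higher, and 0 calls for the difference between genotypes, where the median of all genes moved to 0.26. Single arrays left out in turn gave 5729 (without Bank1-/- 48 h replicate 2) to 6057 (without WT 48 h replicate 1) calls, 1455 to 1594 of at least 2-fold and 51.8% to 52.9% higher, 5751 to 6128 calls in WT, and 6 to 11 for the difference. The difference, 8 genes as reported, was called for 23 with cyclic loess, 25 with array weights, 5 with 30 arrays and 4 with all 40. At least 2-fold calls numbered 1168 with the authors' series table and 2003 with an offset of 16. Relative to the median of all genes, list medians that lay further from it than the spread between arrays changed sign under median scaling for mitosis (0.0571), the Myc and Max network (-0.0154) and the ER list (0.0336), under the brightness covariate for the ER list (0.0139) and, when single arrays were left out, for the ER list (-0.0548 to 0.0028, the highest without Bank1-/- 48 h replicate 3), with the mean over probes for the integrated stress response (0.033), and without the 3 dimmest 24 h arrays, an alternative chosen after seeing the data, for the integrated stress response (0.0968), dendritic markers (0.0014) and erythroid markers (0.0074). Medians within that spread also changed sign: amino acid transporters (-0.0586 as reported, up to 0.0437 without Bank1-/- 48 h replicate 5), cytosolic ribosomal proteins (-0.0143 as reported, up to 0.0569 without the 3 dimmest arrays, in 9 settings) and platelet markers, a single gene. Leaving out those 3 arrays turned Nnt to 0.0674 without a call and Cd24a to -0.76 with one. For named genes 11862 values under the alternatives kept the side of the threshold, and for genes called as reported also the direction. For genes not called as reported and still not called, direction was not compared. A call was lost in 118 values and gained in the same direction in 14, and 2 values were reversed. The causes were not tested.

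Same-numbered 48 h and 24 h Bank1-/- arrays deviated from their group means with correlations of -0.07, -0.27, 0.36, 0.14 and 0.23, and WT arrays with 0.27, -0.08, 0.27, 0.33 and 0.19. Since 3 of the 10 were below 0.1, and no label ties the numbers to a shared animal or day, the numbers were not taken as pairs; 4 of the 10 arrays correlated best with their own number. With the replicate number as a block 6114 genes were called in Bank1-/- cells and 7 for the difference.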
